A study of Mus musculus with 80 samples.

Results

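The insulin-like growth factor (IGF) system was followed here through 10 genes in the brains of virgin and primiparous mice: the ligands Igf1 and Igf2, the receptors Igf1r and Igf2r, and the binding proteins Igfbp2, Igfbp3, Igfbp4, Igfbp5, Igfbp6 and Igfbp7. The family was chosen by the measured hypothalamic level of Igf1, which was lower in primiparous than in virgin females. The hypothalamic differences between primiparous and virgin females are therefore given as a description, with no p-value, and nothing is read from their calls. All 10 members were among the 27179 genes of the count table, and all 10 were among the 13016 genes that reached 5 CPM (reads of a gene scaled to a common library total) in 8 or more libraries. RNA-seq of hypothalamus, cerebellum, hippocampus, neocortex and amygdala was planned for 8 virgin and 8 primiparous C57BL/6 females (C57BL/6J in the methods), with 1 library per mouse and region. Of the 80 samples, 77 were analysed here, and the virgin groups of cerebellum, hippocampus and amygdala held 7 mice. The primiparous females had been housed singly with 1 male for 2 weeks from 8 weeks of age, had raised 1 litter, and were sampled 3 weeks after weaning per the labels (the methods give a longer interval); the virgin females were of the same age, unmated and kept in groups. No mouse carried a transgene. Experience of a male, mating, pregnancy, birth, lactation and housing came together in the primiparous group and cannot be told apart. The hypothalamus was used whole and the other regions from the left side only. Libraries of each region were pooled for sequencing, so region and sequencing pool cannot be told apart either.

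IGF1 and IGF2 are secreted peptides related to insulin. Both act mainly through IGF1R, a receptor tyrosine kinase that signals through PI3K and AKT, whereas IGF2R, also the mannose 6-phosphate receptor, carries IGF2 to lysosomes for breakdown. Secreted binding proteins hold IGFs in the extracellular space, prolong their life and keep them from, or deliver them to, the receptor. In the brain, IGF1 is known for supporting neurons, myelination and the hypothalamic control of reproduction, and IGF2 is made largely by the choroid plexus and the meninges.

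Total counts per library ran from 7959192 to 37871854 with a median of 17623886, and Igf1 in the hypothalamus rested on 41 to 177 reads per library. Of 17 genes that mark the 5 regions, 16 had their highest mean in the labelled region, and the exception was Rspo2, at 10.4 CPM in the amygdala and 20.9 CPM in the hippocampus. Some libraries stood apart by markers of neighbouring tissue. Ttr, the transthyretin gene that defines the choroid plexus, exceeded 500 CPM in 4 cerebellum and 4 hippocampus libraries, reached 3598 CPM and stayed at or below 6.50 CPM in the hypothalamus. Markers of the olfactory bulb together (Doc2g, Cdhr1, Tbx21, Eomes and Sp8) exceeded 100 CPM in 13 of 16 neocortex libraries. Prl, a pituitary marker, reached 119.8 CPM in virgin and 97.3 CPM in primiparous hypothalami. It reached 125.0 CPM in primiparous and 9.41 CPM in virgin amygdala, and 90.1 and 2.46 CPM in primiparous and virgin cerebella. Cerebellar markers together reached 237.2 CPM in a primiparous hippocampus library. Animal numbers came in 2 series that nearly coincide with the states: 6 of the virgin females had 4-digit numbers and 7 of the primiparous females 3-digit numbers, the exceptions being virgin 405 and 409 and primiparous 4493. As these are homogenates of tissue, fewer cells that express a gene and less RNA per cell cannot be told apart.

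The sequences in front of the start sites are shown for 4 members on which the results below turn: Igf2 and Igfbp2 because they varied together between libraries, and Igfbp4 and Igfbp6 because they had the widest range between regions. Each is the 250 bases before a RefSeq start site on GRCm38.p6, written 5′ to 3′ along the gene's strand. Capitals mark the letters of a TATA box (TATAAA), of a GC box (written as GGGCGG) or of a CCAAT box (by its own name) on either strand. These 3 motifs were searched by letters alone, and none overlaps another in these windows. Igf2 has 4 start sites and Igfbp2 has 2 in the table, and the window farthest upstream is given. None of the 4 windows shares a base with an annotated exon of its gene. The only Igf1 window in the table, chr10:87860861-87861110, lies inside the gene, with all of its 250 bases in an exon of the GENCODE annotation, and its sequence is not shown.
Igf2, chr7:142666817-142667066, minus strand: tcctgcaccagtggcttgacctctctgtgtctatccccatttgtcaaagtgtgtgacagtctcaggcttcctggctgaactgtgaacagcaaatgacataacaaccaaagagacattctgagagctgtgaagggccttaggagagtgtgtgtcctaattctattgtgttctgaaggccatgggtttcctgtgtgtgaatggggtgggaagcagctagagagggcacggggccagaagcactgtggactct
Igfbp2, chr1:72824230-72824479, plus strand: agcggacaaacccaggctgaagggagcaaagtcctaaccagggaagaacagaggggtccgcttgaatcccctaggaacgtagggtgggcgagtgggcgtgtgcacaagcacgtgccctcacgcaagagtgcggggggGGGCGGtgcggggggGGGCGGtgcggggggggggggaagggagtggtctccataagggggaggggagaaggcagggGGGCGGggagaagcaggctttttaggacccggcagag
Igfbp4, chr11:99040994-99041243, plus strand: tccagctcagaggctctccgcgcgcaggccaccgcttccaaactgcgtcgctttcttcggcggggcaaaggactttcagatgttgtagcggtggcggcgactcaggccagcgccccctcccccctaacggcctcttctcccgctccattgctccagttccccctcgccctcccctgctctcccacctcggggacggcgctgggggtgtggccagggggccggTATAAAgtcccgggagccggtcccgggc
Igfbp6, chr15:102143936-102144185, plus strand: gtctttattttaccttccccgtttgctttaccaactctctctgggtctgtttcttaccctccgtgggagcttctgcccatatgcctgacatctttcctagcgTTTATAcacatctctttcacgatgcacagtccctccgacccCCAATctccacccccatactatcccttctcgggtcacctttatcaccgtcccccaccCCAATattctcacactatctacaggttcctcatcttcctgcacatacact
Of all 32851 windows of the same length, 12.4% held TATAAA, 32.7% held GGGCGG and 33.8% held CCAAT, with a median GC content of 52.4% and a median of 6 CG dinucleotides. The Igf2 window was near the median in GC content with 50.8%, had 1 CG and held none of the 3 motifs. The Igfbp2 window (67.2% GC, 14 CG, 3 GGGCGG) was richer in CG. The Igfbp4 window was also CG-rich (69.2% GC, 22 CG) and had 1 TATAAA close to the start, whereas the Igfbp6 window had 49.6% GC, 7 CG, 1 TATAAA on the opposite strand and 2 CCAAT. These matches describe letters and not sites of binding.

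Igf1 (Entrez 16000, chr10:87858265-87937042, plus strand, 9904 exon bases in the GENCODE annotation of GRCm38) encodes the growth-hormone-responsive ligand. In the hypothalamus its level was 4.15 CPM in the lowest virgin library, 7.30 at the median and 9.61 in the highest, and 2.02, 4.33 and 5.85 CPM in the primiparous libraries. The ranges overlapped only through virgin 409, the library at 4.15 CPM, and every other virgin library stood above all 8 primiparous ones. The means were 7.29 ± 1.61 (SD, n = 8) and 4.16 ± 1.24 CPM (SD, n = 8), which is 1.79-fold lower in primiparous females on the fitted scale (log2 difference −0.844, SE 0.194, 95% interval −1.244 to −0.444). By animal number, the exceptions were virgin 405 at 6.70 CPM, virgin 409 at 4.15 CPM and primiparous 4493 at 2.81 CPM. The log2 difference ran from −0.939 to −0.732 when each library was left out in turn. It was −0.713 with the number series as a covariate and −0.564 after a correction for gene length and GC content. Igf1 was not called in either of those fits, and these outcomes too are a description.

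The share of the transcriptome in long and GC-poor genes differed in its median with the same contrast, with overlapping ranges. Igf1 is both long (the median of the genes tested is 4736.5 exon bases) and GC-poor (38.0% GC against a median of 49.9%). The mean log2 level of the longest 10% of genes minus that of the shortest 10%, each relative to the region's mean, was −0.055 to 0.121 in virgin and −0.247 to 0.161 in primiparous hypothalami. The same index for the GC-poorest minus the GC-richest 10% was −0.185 to 0.330 in virgin and −0.566 to 0.155 in primiparous hypothalami. Virgin 409 was the lowest virgin library in both indices as well as in Igf1. Primiparous 4493 went the other way, below its group's median in Igf1 and above it in the length index (0.048, median −0.088). A correlation was computed for the length index only, so how closely Igf1 follows the GC index is not given. Over the 16 hypothalamus libraries, with the mean of each state taken out, Igf1 and the length index had r 0.373 and rho 0.321, given as a description. Without the 2 farthest libraries r was 0.305. These values describe libraries within a state and leave out the difference between the states. The part of the indices in the Igf1 difference was not tested. In the hypothalamus 22.6% of all genes tested were called by edgeR at an adjusted p under 0.05, and 1 of the 10 members, Igf1, was among them. As this contrast chose the family, nothing is read from that count.

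Some markers of cell types were called in the hypothalamic contrast, where 22.6% of all genes were, and their counts are given as a description from which nothing is read. Called higher in primiparous females were 2 of the 6 mural markers tested (Pdgfrb, log2 difference 0.294, and Acta2, 0.453), 1 of 7 endothelial markers (Cldn5, 0.413) and 1 of 8 choroid plexus markers (Ttr, 1.521, at most 6.50 CPM). Other members of these lists had the opposite sign without being called. They include Abcc9 at −0.182 among the mural markers and Slco1a4 at −0.392 among the endothelial ones. Among those of the choroid plexus, whose median was −0.034, they include Aqp1 at −0.952, Kcnj13 at −0.858 and Otx2 at −0.669. Of the 6 astrocyte markers 2 were called lower (Slc1a3, −0.188, and Slc1a2, −0.164). Gfap (0.189) and Gja1 (0.096) in that list had the opposite sign without being called. Of the 7 interneuron markers Sst (0.440) and Npy (0.530) were called higher and Gad2 (−0.185) lower. The summed mural markers were at 73.2 to 115.2 CPM in virgin and 77.3 to 123.3 CPM in primiparous libraries, and the summed astrocyte markers at 3084 to 3663 and 2806 to 3958 CPM, both overlapping. Their part in the Igf1 difference was not tested.

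**Figure D1:**
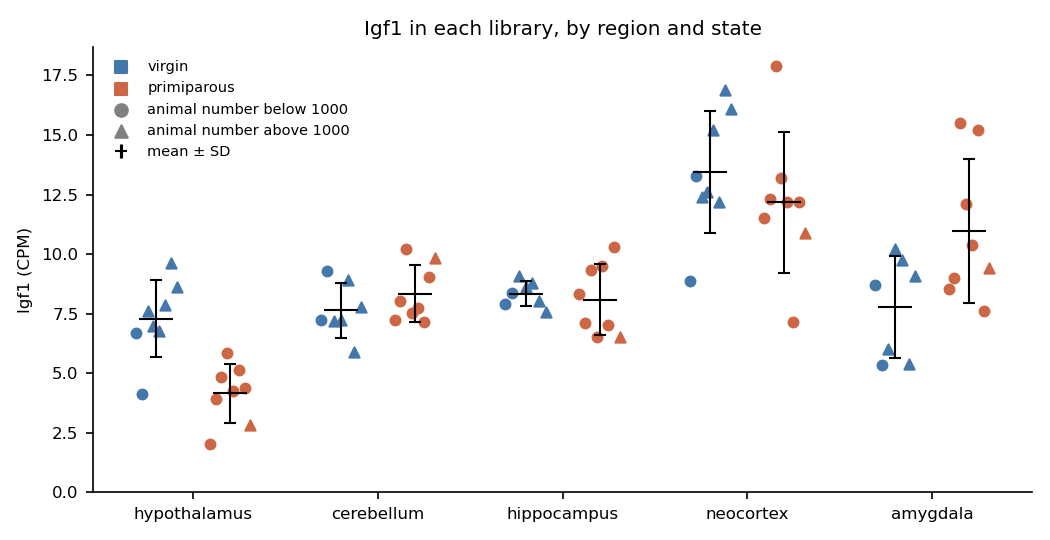
Igf1 in CPM (vertical axis) in each library by region, with virgin libraries in blue, primiparous libraries in red, circles for animal numbers below 1000, triangles for those above 1000, and bars for the mean ± SD. In the hypothalamus the primiparous libraries lie between 2.02 and 5.85 CPM and the virgin ones between 4.15 and 9.61 CPM, whereas the ranges overlap widely in the other regions.

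In the other 4 regions, which did not take part in the choice, Igf1 did not pass the test. Amygdala levels were 5.35, 8.71 and 10.2 CPM in virgin libraries (lowest, median, highest) and 7.61, 9.89 and 15.5 CPM in primiparous ones. The groups overlapped, though 7 of 8 primiparous libraries were above the virgin mean. The log2 difference was 0.504 (SE 0.186, 95% interval 0.121 to 0.886, adjusted p = 0.282), and its adjusted p was between 0.0886 and 0.581 over the alternatives that gave one. Cerebellar Igf1 had means of 7.65 ± 1.16 (n = 7) and 8.35 ± 1.19 CPM (n = 8) and a log2 difference of 0.150 (edgeR, adjusted p = 0.473). Hippocampal means were 8.34 ± 0.534 (n = 7) and 8.08 ± 1.48 CPM (n = 8), with a log2 difference of −0.043 (edgeR, adjusted p = 0.950). For the neocortex the means were 13.4 ± 2.57 and 12.2 ± 2.96 CPM (n = 8 each), with a log2 difference of −0.126 (edgeR, adjusted p = 0.692).

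Between regions, over both states, Igf1 ran from 12.8 ± 2.76 CPM in the neocortex (n = 16) through 9.48 ± 3.02 in the amygdala (n = 15), 8.20 ± 1.11 in the hippocampus (n = 15) and 8.02 ± 1.19 in the cerebellum (n = 15) to 5.72 ± 2.13 in the hypothalamus (n = 16). The virgin hypothalamus alone, at 7.29 CPM, was close to the virgin cerebellum at 7.65 CPM. Neocortex exceeded amygdala by 0.445 on the log2 scale (SE 0.110, adjusted p = 0.000316, higher in 14 of 15 mice). Amygdala did not pass the test against hippocampus (log2 difference 0.165, adjusted p = 0.203), nor did hippocampus against cerebellum (0.181, adjusted p = 0.132). Cerebellum and hypothalamus differed by 0.553 on the log2 scale, given without a test because the hypothalamic libraries chose the family.

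The neocortical level of Igf1 is given here beside the olfactory bulb markers, which Igf1 is not part of. In the 3 neocortex libraries below 100 CPM of those markers Igf1 was 11.5 CPM (primiparous 413, markers 9.53 CPM), 7.16 CPM (primiparous 425, markers 12.7 CPM) and 8.87 CPM (virgin 405, markers 38.4 CPM). In the other 13 it was between 10.9 and 17.9 CPM, a range that holds the value of primiparous 413. Without those 13 libraries, a choice made after seeing the data, the neocortex minus amygdala difference was 0.002 (edgeR, adjusted p = 0.996). The difference of cerebellum minus neocortex went from −0.790 (adjusted p = 8.26e-10) to −0.349 (adjusted p = 0.145) and that of hippocampus minus neocortex from −0.609 (adjusted p = 9.92e-07) to −0.163 (adjusted p = 0.593). With only 3 neocortex libraries left in that fit, calls over all genes fell too. They went from 8138 to 4254 for neocortex minus amygdala and from 10401 to 8290 for cerebellum minus neocortex. For hippocampus minus neocortex they went from 8718 to 4854. The part of olfactory bulb tissue in the neocortical level of Igf1 was not tested. The libraries fell into separate clusters, so no correlation is given.

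**Figure D2:**
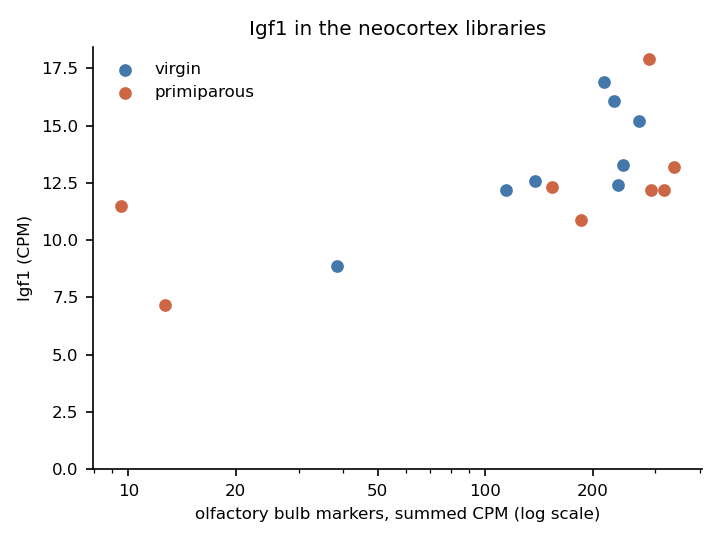
Igf1 in CPM (vertical axis) against the summed CPM of 5 olfactory bulb markers (horizontal log axis) in the 16 neocortex libraries, virgin in blue and primiparous in red. The 3 libraries at 38.4 CPM or less of the markers lie between 7.16 and 11.5 CPM of Igf1, and the other 13 between 10.9 and 17.9 CPM.

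Igf2 (Entrez 16002, chr7:142650766-142666816, minus strand) encodes the second ligand and is an imprinted gene read from the paternal copy in most mouse tissues. It shares 62.83% of its 5723 exon bases with the same-strand model Gm49394, which is not in the count table, so its reads are taken as Igf2 with that reserve. Igf2 was highest in the cerebellum (68.7, 108.7 and 196.6 CPM for the lowest, median and highest library) and lowest in the hypothalamus (16.7, 24.3 and 89.6 CPM). A single hypothalamic library, virgin 4489, reached into the cerebellar range, and the next highest, primiparous 425, was at 52.4 CPM. Hypothalamus minus cerebellum was −1.945 on the log2 scale (SE 0.220, adjusted p = 1.96e-12, lower in all 15 mice). In the region order the cerebellum at 114.8 ± 29.1 CPM did not pass the test against the amygdala at 89.6 ± 44.6 (log2 difference 0.216, adjusted p = 0.349). Amygdala exceeded hippocampus at 60.2 ± 38.1 CPM (0.544, adjusted p = 0.0255), hippocampus and neocortex at 54.9 ± 8.35 CPM did not separate (0.163, adjusted p = 0.506), and neocortex exceeded hypothalamus at 29.4 ± 18 CPM (1.022, adjusted p = 2.11e-05).

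The receptor genes had narrower ranges. Igf1r (Entrez 16001, chr7:67952827-68233668, plus strand, 16791 exon bases), the signalling receptor, differed between its highest and lowest region means by 1.36-fold. Its level was 87.7, 95.6 and 135.9 CPM in the cerebellum and 62.5, 75.0 and 90.0 CPM in the hypothalamus (lowest, median, highest). The cerebellar and hypothalamic ranges met only between 87.7 and 90.0 CPM. Hypothalamus was lower than cerebellum by a log2 difference of −0.458 (SE 0.05, adjusted p = 1.73e-13, lower in 15 of 15 mice). Cerebellum, neocortex, amygdala and hippocampus stood at 102.0 ± 15.0, 91.6 ± 6.27, 84.5 ± 8.62 and 82.3 ± 8.26 CPM, and no neighbours in that order passed the test (adjusted p = 0.367, 0.0792 and 0.691). The cerebellum minus neocortex difference of Igf1r, 0.049, changed direction to −0.182 after the correction for length and GC content.

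Igf2r (Entrez 16004, chr17:12682406-12769664, minus strand, 9308 exon bases), the clearance receptor, is imprinted in the opposite sense, with the maternal copy read in most mouse tissues. Cerebellar libraries held 46.5, 69.9 and 81.3 CPM and neocortical libraries 14.8, 30.9 and 40.6 CPM. No neocortex library reached the lowest cerebellar one, and the difference was 1.020 on the log2 scale (SE 0.0733, adjusted p = 5.74e-22, 15 of 15 mice). Hypothalamus at 51.1 ± 5.81 CPM was below cerebellum at 66.0 ± 11.2 (log2 difference 0.378, adjusted p = 2.59e-06). Hypothalamus, hippocampus at 41.6 ± 3.59 and amygdala at 38.2 ± 4.06 CPM did not pass the test as neighbours (adjusted p = 0.0558 and 0.147), although hypothalamus was above hippocampus in 15 of 15 mice in CPM, and amygdala exceeded neocortex (0.367, adjusted p = 1.50e-05). Without the neocortex libraries over 100 CPM of olfactory bulb markers, hypothalamus minus hippocampus passed (0.145, edgeR, adjusted p = 0.0174).

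Among the binding proteins, Igfbp6 and Igfbp4 divided the regions most sharply. Igfbp6 (Entrez 16012, chr15:102144362-102149511, plus strand), whose product prefers IGF2 over IGF1, had a region range of 28.7-fold and passed the test in all 10 pairs of regions. Its level was 42.9, 52.6 and 89.5 CPM in the neocortex and 0.498, 1.16 and 5.2 CPM in the hypothalamus. The lowest library of each other region stood above the highest hypothalamic one. Hypothalamus minus neocortex was −4.906 on the log2 scale (SE 0.170, adjusted p = 2.19e-39, 16 of 16 mice). The order between was amygdala at 26.6 ± 4.54, cerebellum at 19.8 ± 3.83 and hippocampus at 10.8 ± 1.76 CPM.

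Igfbp4 (Entrez 16010, chr11:99041244-99054392, plus strand), which binds both ligands and is cut by the protease PAPP-A, passed in 9 of 10 pairs, and in those 9 the libraries of the regions did not overlap. The neocortex held 100.4, 111.0 and 157.7 CPM and the hypothalamus 8.03, 10.9 and 16.3 CPM. The hypothalamus minus neocortex difference was −3.442 on the log2 scale (SE 0.0796, adjusted p = 3.47e-53, 16 of 16 mice). Hippocampus at 73.3 ± 8.10 and amygdala at 39.9 ± 4.25 CPM lay between. Cerebellum at 12 ± 2.53 and hypothalamus at 11.5 ± 2.48 CPM were the pair that did not pass (log2 difference 0.041, adjusted p = 0.647).

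Igfbp2 (Entrez 16008, chr1:72824503-72852474, plus strand), a product of the choroid plexus and of developing glia, was highest in the neocortex and lowest in the hypothalamus. Neocortical libraries held 37.2, 50.0 and 88.3 CPM and hypothalamic ones 4.15, 6.53 and 15.4 CPM, with no overlap (hypothalamus minus neocortex −2.958, SE 0.225, adjusted p = 1.62e-19, 16 of 16 mice). Neocortex at 51.7 ± 12.4 and amygdala at 44.5 ± 11.9 CPM did not separate (adjusted p = 0.422), nor did cerebellum at 29.9 ± 23.2 and hippocampus at 27.6 ± 18 CPM (adjusted p = 0.765). In the last pair the highest library of each region, at 108.2 CPM in the cerebellum and 85.0 CPM in the hippocampus, was among those with high Ttr described below. The part of such libraries in the SDs was not tested.

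Igfbp3 (Entrez 16009, chr11:7206086-7213923, minus strand), the main carrier of IGFs in serum, was highest in the cerebellum at 27.2 ± 3.55 CPM and lowest in the neocortex at 11.9 ± 1.73 CPM. The cerebellar libraries (20.1, 27.4 and 33.5 CPM) all stood above the neocortical ones (9.24, 12.1 and 14.5 CPM), with a log2 difference of 1.078 (SE 0.0928, adjusted p = 5.30e-18, 15 of 15 mice). Amygdala at 17.4 ± 3.83, hippocampus at 16.4 ± 2.81 and hypothalamus at 16 ± 3.20 CPM did not separate as neighbours (adjusted p = 0.494 and 0.0620). With the animal as a block the hypothalamus and hippocampus did separate (adjusted p = 0.0424). Hypothalamus exceeded neocortex by 0.302 (edgeR, adjusted p = 0.00258), and by 0.251 (adjusted p = 0.268) without the neocortex libraries over 100 CPM of olfactory bulb markers.

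Igfbp5 (Entrez 16011, chr1:72857932-72874884, minus strand), the most conserved of the binding proteins, had a range between region means of only 1.41-fold. Its level was 201.8, 229.7 and 281.3 CPM in the cerebellum and 130.6, 157.4 and 222.1 CPM in the amygdala. The ranges overlapped, and cerebellum exceeded amygdala by 0.371 on the log2 scale (SE 0.0605, adjusted p = 7.09e-08, 14 of 14 mice). Cerebellum and hippocampus at 212.3 ± 19 CPM did not separate (adjusted p = 0.958), nor did neocortex at 165.5 ± 19.9 and amygdala at 165.3 ± 28.8 CPM (adjusted p = 0.825), and hypothalamus at 208.8 ± 22.4 CPM lay between (adjusted p = 0.0116 against hippocampus and 0.000484 against neocortex, the latter 0.102 without the neocortex libraries with olfactory bulb markers). Calls over all genes for hypothalamus against neocortex also fell without those libraries, from 10110 to 7700. Igfbp7 (Entrez 29817, chr5:77349240-77408041, minus strand), a low-affinity binder made by vessels, passed in 4 of 10 pairs, the fewest of the family. It ran from 14.1 ± 2.51 CPM in the hypothalamus to 22.9 ± 3.21 in the cerebellum (log2 difference −0.701, SE 0.144, adjusted p = 1.08e-05). No neighbours in its order passed (adjusted p = 0.0506 to 0.815), and hypothalamus against hippocampus had an adjusted p of 0.0295 with the animal as a block. Its exons overlap the opposite-strand Polr2b in 85 bases, and whether counting used strand is not given in the sources used here.

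**Figure D3:**
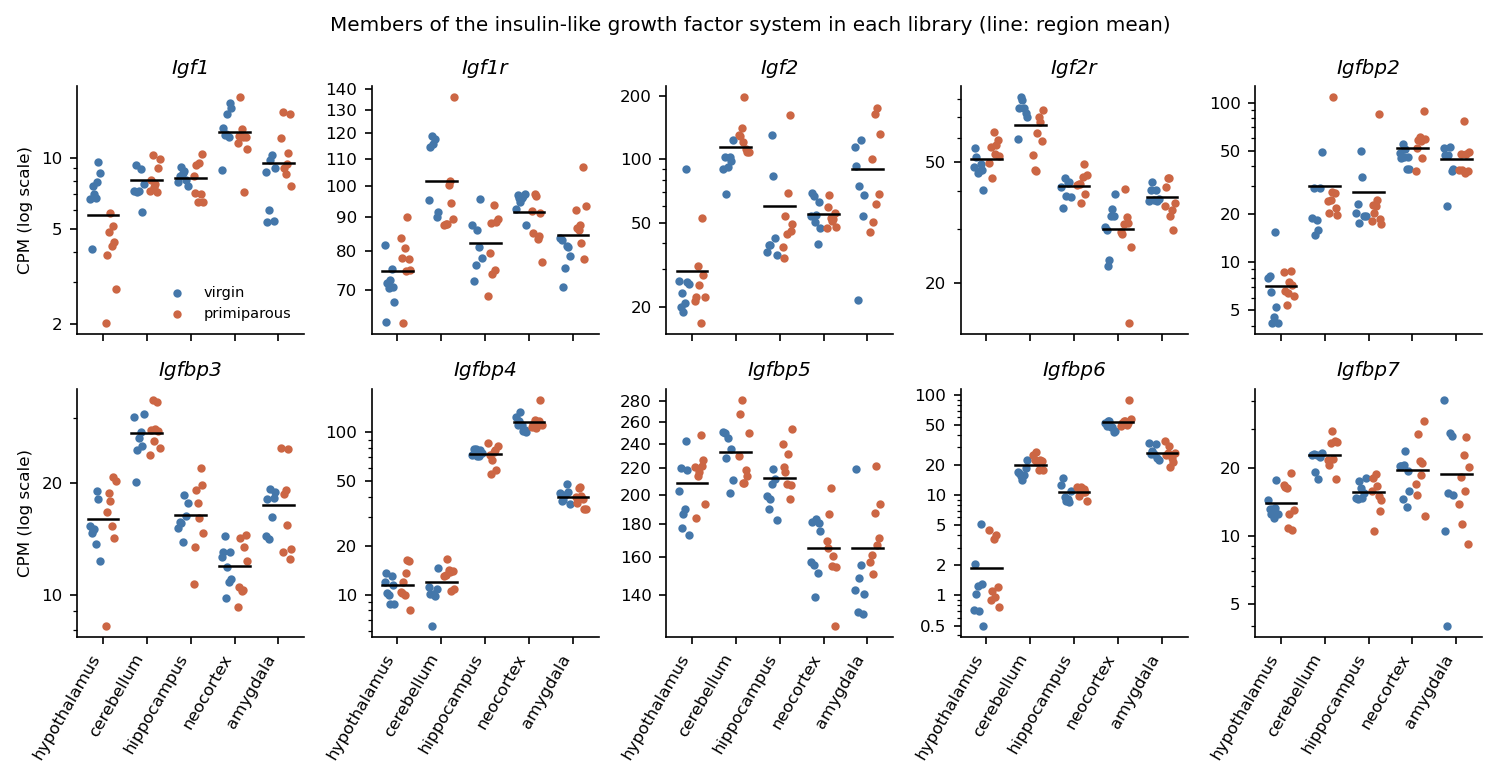
CPM (vertical log axes, a scale of its own for each gene) of the 10 members in each library, by region, with virgin libraries in blue, primiparous libraries in red and the region mean as a line. Igfbp4 and Igfbp6 have the widest range between regions, 10-fold and 28.7-fold between the highest and lowest region means, and Igf1r the narrowest at 1.36-fold.

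Over the 100 tests of a member in a pair of regions, 78 passed at an adjusted p under 0.05, including 4 of Igf1 with the hypothalamus that are a description only. Most genes differ between brain regions, and the members' counts are read against that background. Members called, of 10, and the share of all genes called were 9 and 81.1% for hypothalamus against cerebellum, 7 and 73.0% against hippocampus, 10 and 77.7% against neocortex, and 10 and 71.0% against amygdala. For the cerebellum they were 7 and 78.7% against hippocampus, 8 and 79.9% against neocortex, and 8 and 80.2% against amygdala. They were 8 and 67.0% for hippocampus against neocortex, 5 and 58.7% for hippocampus against amygdala, and 6 and 62.5% for neocortex against amygdala. With only 10 members, these counts lay on either side of the background from pair to pair.

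Levels of different genes can be compared only per exon length. In mean CPM per kilobase of exon, Igfbp5 was first at 34.8 in hypothalamus, 38.9 in cerebellum, 35.3 in hippocampus and 27.5 in amygdala, and Igfbp6 was first in the neocortex (48.1, with Igfbp5 at 27.6). Igf1 was last in all 5 regions, from 0.578 per kilobase in the hypothalamus to 1.29 in the neocortex. Igf2 was 5.13 per kilobase in the hypothalamus and 20.1 in the cerebellum, above Igf1 in each region. The receptors lay between 3.24 (Igf2r, neocortex) and 7.09 per kilobase (Igf2r, cerebellum).

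In some regions Igf2 and Igfbp2 varied between libraries along with markers of the brain's coverings. Correlations within a region are of deviations from the mean of each state, which leaves out the difference between the states. In the amygdala Igf2 ran from 21.4 to 174.2 CPM while the summed meningeal and fibroblast markers (10 genes such as Dcn, Col1a1 and Slc13a4, with 9 past the filter) ran from 53.6 to 304.7 CPM. The library with least of one, virgin 4486, had least of the other. Pearson's r was 0.980 and Spearman's rho 0.968 over 15 libraries (permutation p adjusted over the 575 correlations computed 0.0011 and 0.0019), and r was 0.969 without the 2 libraries farthest in the markers. Across the neocortex libraries r was 0.860 and rho 0.838 (n = 16, permutation, adjusted p = 0.0016 and 0.0089), with r 0.788 without the 2 farthest. Igfbp2 followed the same markers in the amygdala (r 0.920, rho 0.850, n = 15, permutation, adjusted p = 0.0011 and 0.0089, r 0.862 without the 2 farthest). Igf2 and Igfbp2 followed each other there (r 0.896, rho 0.843, n = 15, permutation, adjusted p = 0.0011 and 0.0089, r 0.870 without the 2 farthest). In the hypothalamus r between Igf2 and the meningeal markers was 0.841 but 0.201 without the 2 farthest libraries, so that it rests on virgin 4489, with 89.6 CPM of Igf2 and 156.0 CPM of the markers, and primiparous 425, with 52.4 and 103.4 CPM. Igfbp2 there had r 0.828 and rho 0.626 with the markers (n = 16, permutation, adjusted p = 0.015 and 0.14), and r 0.478 without the 2 farthest. In the hypothalamus the meningeal markers also passed with Igfbp5 (r 0.763, rho 0.779, n = 16, permutation, adjusted p = 0.0039 and 0.024, r 0.785 without the 2 farthest) and with Igfbp4 (r 0.711, rho 0.821, n = 16, permutation, adjusted p = 0.019 and 0.0089, r 0.834 without the 2 farthest). Igfbp2 did not pass with the meningeal markers in the cerebellum (r 0.243, rho 0.318, n = 15, permutation, adjusted p = 0.71 and 0.56, r 0.244 without the 2 farthest).

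In the cerebellum and hippocampus the libraries with Ttr formed a cluster of their own, and values are given in place of a correlation. Cerebellum primiparous 421 had 196.6 CPM of Igf2, 108.2 of Igfbp2 and 3334 of Ttr. Hippocampus primiparous 425 had 162.6, 85.0 and 3598 CPM, and hippocampus virgin 4487 had 130.9, 49.9 and 3219 CPM. In each of these regions the highest Igf2 and the highest Igfbp2 were found in 1 of these libraries. Cerebellum virgin 4491, with 1200 CPM of Ttr, had 49.3 of Igfbp2, the second highest of its region. Its 123.3 CPM of Igf2 was inside the range of the rest over both states, but was the highest of the virgin cerebella. The other 4 libraries over 500 CPM of Ttr stood out less. Cerebellum virgin 409 had 102.5 CPM of Igf2, 29.1 of Igfbp2 and 547.7 of Ttr, and cerebellum virgin 4489 had 98.2, 29.0 and 501.3 CPM. Their Igf2 was inside the range of the cerebellum libraries with less Ttr (68.7 to 141.2 CPM), and their Igfbp2 was just above that range (14.8 to 27.5 CPM). Hippocampus virgin 4488 had 83.2, 34.3 and 783.7 CPM and hippocampus primiparous 421 had 69.3, 24.7 and 923.4 CPM, both above the hippocampus libraries with less Ttr in Igf2 (33.8 to 53.7 CPM) and in Igfbp2 (17.4 to 23.3 CPM). Without the 8 libraries over 500 CPM of Ttr, a choice made after seeing the data, hypothalamus minus hippocampus for Igf2 went from −1.185 to −0.638 (edgeR, adjusted p = 0.00376) and hippocampus minus amygdala from −0.544 to −1.091 (adjusted p = 7.14e-06). For Igfbp2, cerebellum minus neocortex went from −0.938 to −1.461 (edgeR, adjusted p = 9.84e-16). Igfbp7 in cerebellum minus hippocampus kept its size, 0.395 (adjusted p = 0.0103) with and 0.377 (edgeR, adjusted p = 0.0551) without them, and no longer passed in the fit of 69 libraries.

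**Figure D4:**
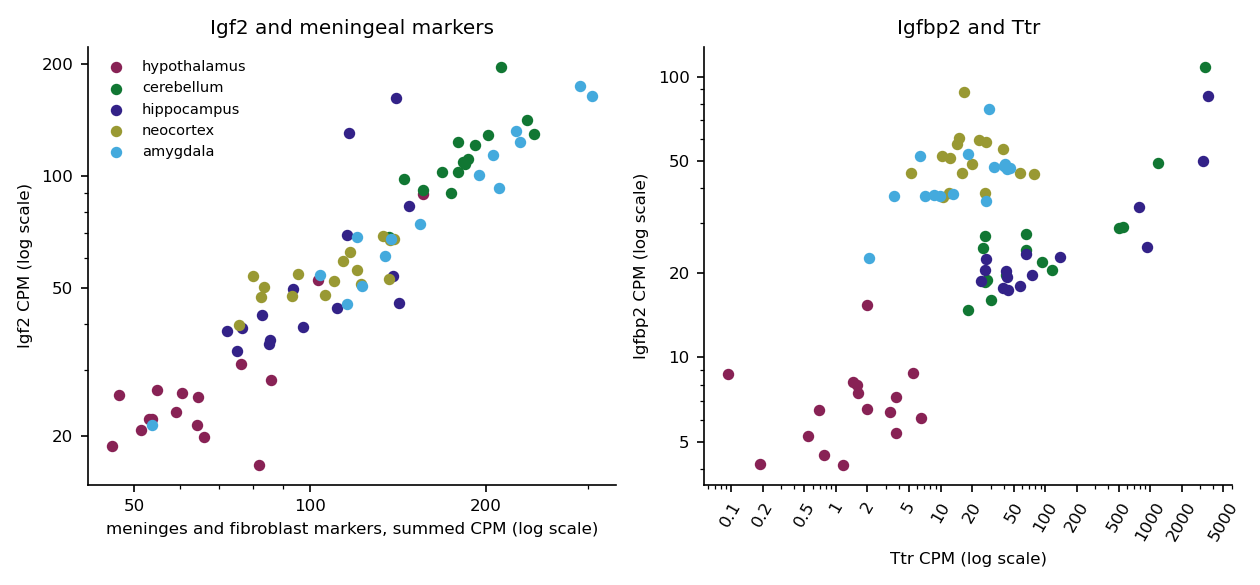
Left, Igf2 in CPM against the summed CPM of meningeal and fibroblast markers, and right, Igfbp2 in CPM against Ttr in CPM, in all 77 libraries coloured by region (all axes log). Amygdala libraries run from 21.4 CPM of Igf2 at 53.6 CPM of the markers to 174.2 at 290.7, and the 3 libraries from 3219 to 3598 CPM of Ttr have between 49.9 and 108.2 CPM of Igfbp2.

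In some regions Igfbp7 varied between libraries along with vessel markers. In the amygdala it ran from 4 to 40.3 CPM, and its correlation with the summed mural cell markers (Pdgfrb, Rgs5, Vtn and others) was r 0.965 and rho 0.968 (n = 15, permutation, adjusted p = 0.0011 and 0.0019), with r 0.916 without the 2 farthest libraries. With the endothelial markers in the neocortex it was r 0.861 and rho 0.776 (n = 16, permutation, adjusted p = 0.0021 and 0.030), with r 0.819 without the 2 farthest. In the cerebellum neither list passed, with r 0.611 and rho 0.539 for the mural markers (n = 15, permutation, adjusted p = 0.11 and 0.27, r 0.386 without the 2 farthest) and r 0.569 and rho 0.521 for the endothelial ones (n = 15, permutation, adjusted p = 0.17 and 0.28, r 0.295 without the 2 farthest). The endothelial markers of the hypothalamus (r 0.620, rho 0.600, n = 16, permutation, adjusted p = 0.086 and 0.17, r 0.570 without the 2 farthest) and the mural markers of the hippocampus (r 0.480, rho 0.411, n = 15, permutation, adjusted p = 0.29 and 0.42, r 0.430 without the 2 farthest) did not pass with it either. The mural markers of the hypothalamus did pass with it (r 0.748, rho 0.753, n = 16, permutation, adjusted p = 0.016 and 0.034, r 0.568 without the 2 farthest). Outside the hypothalamus Igf1 did not pass with microglial markers in any region (adjusted p = 0.28 to 1.0 by permutation), n being 15 or 16.

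Several members also moved with the long-minus-short index within a region. Primiparous 427 stood apart in the neocortex with an index of −0.912, against −0.259 to 0.283 in the other neocortex libraries, and had the lowest Igf2r of the region (14.8 CPM) and the highest Igfbp2 (88.3), Igfbp4 (157.7) and Igfbp6 (89.5 CPM). Over the 16 neocortex libraries the index correlated with Igfbp6 at r −0.951 and rho −0.835 (permutation, adjusted p = 0.0011 and 0.0089), and at r −0.824 without the 2 farthest libraries. For Igf2r in the neocortex r was 0.903 and rho 0.788 (n = 16, permutation, adjusted p = 0.0021 and 0.023), with r 0.676 without the 2 farthest. In the cerebellum the index correlated with Igf1r, the longest member, at r 0.912 and rho 0.943 (n = 15, permutation, adjusted p = 0.0016 and 0.0019), with r 0.874 without the 2 farthest. Igf1r and Igfbp6, the longest and the shortest member, went in opposite directions there (r −0.787, rho −0.904, n = 15, permutation, adjusted p = 0.0071 and 0.0029, r −0.806 without the 2 farthest).

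Outside the hypothalamus, no member passed the parity test. The edgeR count was 0 of 10 in cerebellum, hippocampus, neocortex and amygdala, and at an unadjusted p under 0.05 it was 4, 1, 2 and 2. limma-voom called 0 members in each of these regions, and DESeq2 called 2 in the cerebellum and 0 in the other 3. Over all genes the shares at an unadjusted p under 0.05 were 19.5%, 7.38%, 9.80% and 11.9% by edgeR, and the shares that DESeq2 called were 3.88%, 0.0999%, 0.0% and 0.815%, in the same order of regions. The share of all genes that edgeR called was 0.707% for cerebellum, 0.0% for hippocampus, 0.0% for neocortex and 0.0% for amygdala. By limma-voom it was 0.553%, 0.0%, 0.0% and 0.0% in that order.

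The members nearest to the threshold were in the cerebellum. Igf2 there was 68.7, 98.2 and 123.3 CPM in virgin libraries and 107.7, 125.0 and 196.6 CPM in primiparous ones, overlapping through the upper virgin libraries, with all 8 primiparous libraries above the virgin mean. The means were 96.7 ± 16.5 (n = 7) and 130.6 ± 29.1 CPM (n = 8), a log2 difference of 0.450 (SE 0.137, edgeR, adjusted p = 0.106; DESeq2, adjusted p = 0.0484). Igfbp6 was 14.3, 16.8 and 22.7 CPM in virgin and 17.7, 22.1 and 27.3 CPM in primiparous cerebella, again with 8 of 8 above the virgin mean (log2 difference 0.369, SE 0.101, edgeR, adjusted p = 0.0686; DESeq2, adjusted p = 0.0251). Igfbp4 had a log2 difference of 0.361 (edgeR, adjusted p = 0.140) and Igf2r one of −0.283 (edgeR, adjusted p = 0.119). Leaving out single libraries moved some over the threshold: Igfbp6 had an adjusted p of 0.0200 without primiparous 4493 and 0.0369 without virgin 4491, and Igf2r had −0.330 with an adjusted p of 0.0357 without primiparous 4493.

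Summed meningeal markers did not overlap between the states in the cerebellum, at 136.5 to 179.6 CPM in virgin and 182.8 to 241.9 CPM in primiparous libraries, and 1 of their 9 tested genes was called higher. The choroid plexus sum there was 176.2 to 1948 CPM in virgin and 179.1 to 5277 CPM in primiparous libraries, with 0 of 8 tested genes called by edgeR. Also called higher were 1 of 6 oligodendrocyte markers (Mbp, log2 difference 0.421) and 1 of 6 astrocyte markers (Aqp4, 0.305), where 0.707% of all genes were called. The oligodendrocyte sum was 4457 to 5920 CPM in virgin and 5357 to 7513 CPM in primiparous libraries, which overlap. The correlations that follow are of deviations from the mean of each state, so the difference between the states is not in them. Over the 15 cerebellum libraries the correlation with the meningeal sum was r 0.637 and rho 0.700 for Igf2 (permutation, adjusted p = 0.082 and 0.086, r 0.619 without the 2 farthest). For Igfbp4 it was r 0.624 and rho 0.450 (n = 15, permutation, adjusted p = 0.086 and 0.36, r 0.592 without the 2 farthest), and for Igfbp6 r 0.486 and rho 0.414 (n = 15, permutation, adjusted p = 0.29 and 0.42, r 0.389 without the 2 farthest). The long-minus-short index was −0.113 to 0.209 in virgin cerebella (median 0.122) and −0.163 to 0.160 in primiparous ones (median −0.085). With this index Igfbp6 had r −0.737 and rho −0.793 (n = 15, permutation, adjusted p = 0.030 and 0.030, r −0.543 without the 2 farthest) and Igfbp4 r −0.689 and rho −0.718 (n = 15, permutation, adjusted p = 0.048 and 0.069, r −0.536 without the 2 farthest). For Igf2 it was r −0.516 and rho −0.468 (n = 15, permutation, adjusted p = 0.24 and 0.33, r −0.339 without the 2 farthest). Without the 4 cerebellum libraries over 500 CPM of Ttr the log2 differences were 0.461 for Igf2 (edgeR, adjusted p = 0.139), 0.502 for Igfbp4 (adjusted p = 0.225) and 0.534 for Igfbp6 (adjusted p = 0.139). In that fit of 11 libraries edgeR called 0 of all genes, with 1760 at an unadjusted p under 0.05. The part of the markers and of the index in the cerebellar differences was not tested.

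In the amygdala Igf1r, like Igf1, had a positive difference that did not pass (79.2 ± 4.68, n = 7, against 89.1 ± 8.77 CPM, n = 8; log2 difference 0.180, edgeR, adjusted p = 0.261). Igfbp2 (0.350, adjusted p = 0.479) and Igfbp6 (0.263, adjusted p = 0.488, and 0.146 without primiparous 427) in the neocortex and Igfbp5 (0.145, adjusted p = 0.599) in the hippocampus were the other values with an unadjusted p under 0.05. In the hypothalamus the 9 members other than Igf1 had log2 differences from −0.253 (Igf2, 31.3 ± 23.8 against 27.4 ± 11 CPM) to 0.302 (Igfbp6, 1.59 ± 1.54 against 2.14 ± 1.61 CPM), given as a description. Both ends turned on single libraries: without virgin 4489 Igf2 was at 0.213, Igfbp6 at 0.903 and Igfbp2 at 0.234 in place of −0.045, and without primiparous 413 Igfbp6 was at −0.009. DESeq2 also gave Igf2 the other sign, 0.219. Igf2r was 48.1 ± 4.39 against 54.1 ± 5.69 CPM there (log2 difference 0.144), and Igf1r 71.6 ± 5.60 against 77.9 ± 7.95 CPM (0.096).

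**Figure D5:**
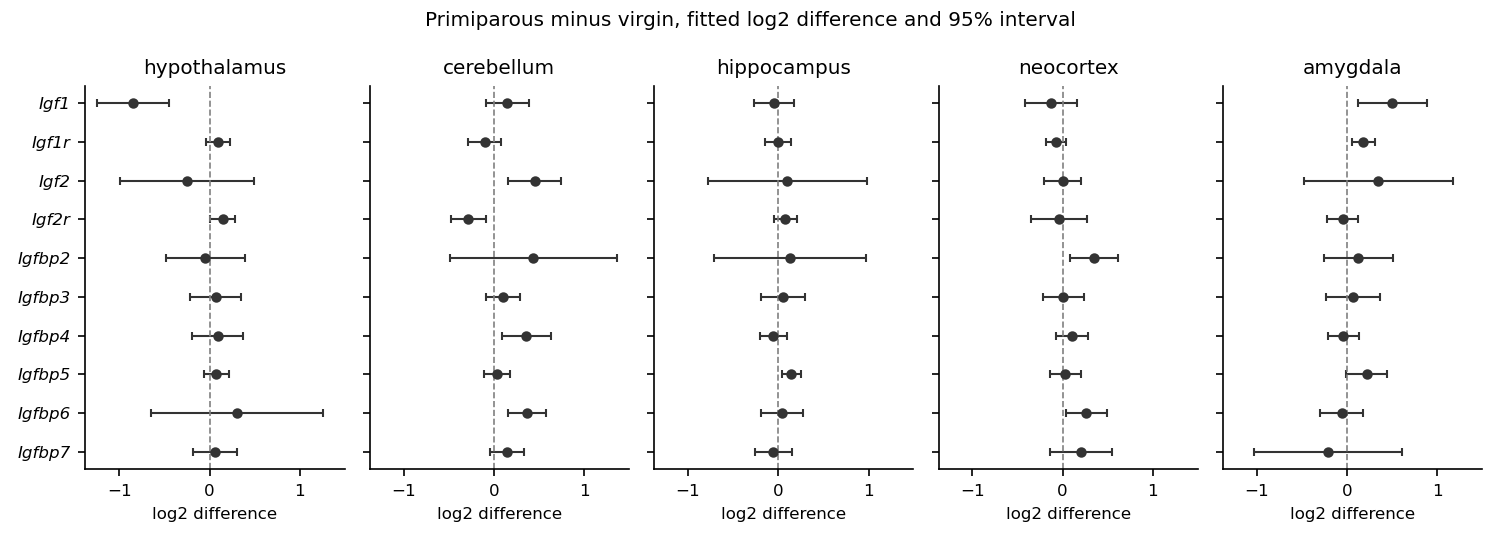
Fitted log2 difference of primiparous minus virgin females with its 95% interval for each member (rows) in each region (panels), where 0 means no difference. In the hypothalamus Igf1 stands at −0.844 with an interval of −1.244 to −0.444, and the other 9 members lie between −0.253 and 0.302.

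The difference between regions in the parity difference includes the hypothalamic values that chose the family and is given as a description. Igf1 was lower by a log2 of −1.342 relative to the amygdala, −1.002 relative to the cerebellum, −0.814 relative to the hippocampus and −0.718 relative to the neocortex. For Igf2r the value against the cerebellum was 0.419, with parity differences of 0.144 (hypothalamus) and −0.283 (cerebellum). Interactions with an adjusted p under 0.05 numbered 2 of 10 members against the cerebellum (15.5% of all genes), 1 against the hippocampus (17.2%), 0 against the neocortex (0.0%) and 1 against the amygdala (18.2%). They are those of Igf1, and that of Igf2r against the cerebellum. As they rest on the values that chose the family, nothing is read from these counts.

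Of 57 other genes of IGF signalling (proteases and related receptors, the growth hormone axis, adaptors, the PI3K, AKT and mTOR kinase arm, and its targets), 48 passed the filter. In the hypothalamus 10 were called, 3 higher and 7 lower in primiparous females, which is 20.8% against 22.6% of all genes, and their median log2 difference was −0.038 against 0.014 over all genes. As the same contrast chose the family, this too is a description. Lower were Rps6kb1, which encodes S6 kinase (−0.295), the Ras exchange factors Sos1 (−0.260) and Sos2 (−0.240), and the PI3K regulatory subunit Pik3r1 (−0.188). Higher were Sst, encoding somatostatin, which restrains growth hormone release (0.440), the PI3K regulatory subunit Pik3r2 (0.278) and Akt1 (0.208). Sst was at 117.4 to 140.9 CPM in virgin and 127.8 to 221.9 CPM in primiparous hypothalami. The PI3K regulatory subunits did not share a direction, as Pik3r2 was higher while Pik3r1 was lower. Growth hormone releasing hormone, Ghrh, had 0.015 and the growth hormone receptor Ghr −0.229, neither called. In cerebellum, hippocampus, neocortex and amygdala edgeR called 0 of the 48, with 9, 2, 5 and 6 at an unadjusted p under 0.05, limma-voom called 0 and DESeq2 called 1, 0, 0 and 1. Over all genes the shares at that unadjusted threshold were 19.5%, 7.38%, 9.80% and 11.9% by edgeR. DESeq2 called 3.88%, 0.0999%, 0.0% and 0.815% of all genes, in the same order of regions.

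The genes most like each member were ranked by Pearson's r of their deviations from the 10 group means on log2(CPM + 4), over the 77 libraries and 13015 other genes. The libraries share their depth, region pool and tissue composition, and no test is given. For Igf2 they were Slc13a4 (r 0.924), Pcolce (0.838) and Bmp6 (0.806), and Slc13a4 is one of the meningeal markers. Igfbp2 was closest to Kcnj13 (0.851), a choroid plexus potassium channel among the markers, Sema3b (0.807) and 1500015O10Rik (0.803). For Igfbp7 they were Myl9 (0.870), Cldn5 (0.810) and Vtn (0.803), the last pair being endothelial and mural markers. Igf2r was closest to Herc2 (0.827) and Peg3 (0.788). The other members had no r above 0.656 (Igf1r with Son). Igf1 was closest to Agps (0.557), Ppargc1a (0.530), Zfp946 (0.530), Btf3l4 (0.516) and Tor1aip2 (0.516), of which 3 stayed among its closest 5 with a pseudocount of 1. The leading genes were Vgll3 (0.560) for Igfbp3, Rras (0.626) for Igfbp4, Trim56 (0.607) for Igfbp5 and Nupr1 (0.592) for Igfbp6.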

How the data were processed

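Poly(A) RNA libraries of 5 regions (77 of 80 samples, 16 mice) were sequenced single-end. The authors aligned reads to mm10 with HISAT2, and the deposited values are counts of reads mapping once, per gene, from featureCounts with its inbuilt annotation (strand setting and tool versions not given in the sources used here). The authors also deposited log2 values of 13016 genes, described as log2(CPM + 4). They differed from that by a median of 3.94 and lay within 5e-05 of log2(count divided by a size factor, plus 4), and were used only to check the gene set. The authors tested with limma-voom.

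Counts were filtered as in the methods (at least 5 CPM in at least 8 libraries), scaled by TMM and tested with edgeR 4.0.16 (quasi-likelihood, two-sided, Benjamini-Hochberg over all 13016 genes, adjusted p under 0.05) in R 4.3.3, within each region for parity and over all libraries for regions. CPM are counts over the library total, without TMM. Alternatives were limma-voom 3.58.1 (also with quality weights), DESeq2 1.42.0, relative log expression factors, no filter, 1 fit of all groups, the number series as a covariate, a length and GC correction (12632 genes, 97.0% of those kept), the animal as a block, and leaving out each library. Fits without libraries over 500 CPM of Ttr, without neocortex libraries over 100 CPM of olfactory bulb markers and without 1 hypothalamus library were added after seeing the data. The fitting code was tested on simulated data. Correlations within a region were computed on deviations from the mean of each state there. They used 100000 permutations with a smallest p of 1e-05 before adjustment.

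The 10 members and the gene lists were chosen with earlier results of these data known. Every member is described. Of the pathway list, the 4 genes highest and the 4 lowest in hypothalamic log2 difference among those called are named, and 5 (Igf1) or 3 (others) genes most like each member. Ghrh and Ghr were named after their values were seen, and a few genes that the rule names are not reported here. Libraries of a mouse share its number across regions, which gives the pairing of the region comparisons. Deviations of all genes from group means correlated at a median r of 0.045 (-0.394 to 0.512) over 149 pairs of the same mouse and -0.002 over 2222 pairs of different mice. The main fit has no block. Promoter sequences are from RefSeq on GRCm38.p6; all 10 members matched.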

Additional observations from a re-analysis of the deposited data

Results flagged for a closer look

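Among 100 groups of a member in 1 region and state, 16 held a library far from the others by Dixon's test on CPM. A rate of about 1 in 20 would hold for independent groups of normally spread values. Here every flagged library was the highest of its group and some libraries recur across members, so the count is not read as an excess. Hypothalamus virgin 4489 was high in Igf2 (89.6 CPM, the other 7 at 18.8 to 26.5), Igfbp2 (15.4 CPM) and Igfbp6 (5.2 CPM), and it had the highest meningeal marker sum of the region (156.0 CPM). Hypothalamus primiparous 425 was high in Igf2 (52.4 CPM), with a meningeal sum of 103.4 CPM, and hypothalamus virgin 4490 in Igfbp7 (17.8 CPM). Libraries with high Ttr stood out in Igf2 (cerebellum primiparous 421 at 196.6 CPM, hippocampus primiparous 425 at 162.6 CPM) and in Igfbp2 (cerebellum primiparous 421 at 108.2, cerebellum virgin 4491 at 49.3 and hippocampus primiparous 425 at 85.0 CPM). Neocortex primiparous 427, the library with the lowest long-minus-short index (-0.912), stood out in Igfbp2 (88.3 CPM), Igfbp4 (157.7 CPM) and Igfbp6 (89.5 CPM). In the amygdala, primiparous 413 was high in Igfbp2 (76.4 CPM), with the highest meningeal sum of the region (304.7 CPM), and virgin 409 in Igfbp5 (219.2 CPM). In the cerebellum, primiparous 4493 was high in Igf1r (135.9 CPM, the other 7 at 87.7 to 101.9) and had the highest long-minus-short index of its group (0.160). The part of these markers and indices in the values was not tested.

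The parity difference of Igf1 in the hypothalamus was below that in the cerebellum (difference of log2 differences -1.002), the hippocampus (-0.814) and the amygdala (-1.342), and that of Igf2r was above the cerebellar one (0.419). All 4 use the hypothalamic libraries that chose the family.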

How the results depend on the processing

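The members called in the hypothalamus went from 1 to 0 with the number series as a covariate, 0 with the length and GC correction and 2 with quality weights, and were 1 to 2 with each library left out. The second was Igf2r, called without primiparous 415 and with quality weights. In the cerebellum 0 became 2 with DESeq2 and 2 with quality weights, and 0 to 2 with each library left out. Interactions with the cerebellum went from 2 members to 1 with the animal as a block and the length and GC correction together and to 0 with the number series. Those with the hippocampus and the amygdala went from 1 to 0 under each of these. Interaction calls over all genes fell too, given here as main fit, block with correction, and number series. They were 15.5%, 5.22% and 0.0% for the cerebellum and 17.2%, 0.353% and 0.00768% for the hippocampus. For the amygdala they were 18.2%, 0.83% and 3.61%. As the hypothalamic values chose the family, the counts for the hypothalamus and for the interactions are a description. The region count of 78 was 80 under the replicate block of the animal, where 2 calls changed (Igfbp3 and Igfbp7, hypothalamus against hippocampus), 76 to 81 with each animal left out, and 70 without the neocortex libraries with olfactory bulb markers. Igf1r in cerebellum minus neocortex (0.049) reversed to -0.182 with the length and GC correction, with and without the block. Of 392 parity values that did not pass, 36 had the other sign under an alternative. Over all genes, the 2939 hypothalamic calls became 3 with the number series, 418 with the length and GC correction and 4900 with quality weights, and the 92 cerebellar calls ranged from 6 (without virgin 4486) to 903 (without primiparous 4493), with 505 by DESeq2. The number series nearly coincides with the states, so that fit leaves few mice to separate them; the causes of the other changes were not tested. Igf1 in the hypothalamus rested on as few as 41 reads per library, which limits its precision.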
